A study of Mus musculus with 11 samples.

Results

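The leukocyte adhesion molecules and the ligands of the checkpoint receptor PD-1 were examined in fibroblasts sorted from mouse mammary glands and tumours. The set holds 8 genes: the immunoglobulin superfamily adhesion molecules Icam1, Icam2, Vcam1 and Madcam1, the selectins Sele and Selp, and the PD-1 ligands Cd274 (PD-L1) and Pdcd1lg2 (PD-L2). A gene was taken from probe sets whose only annotated symbol was its own, and the brightest was kept. In this way 7 of the 8 genes were measured, out of 19938 genes in all, and each of the 7 had 1 probe set. Selp was not analysed here.

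Leukocytes leave the blood by rolling on selectins, stopping on immunoglobulin superfamily ligands through their integrins, and crossing the vessel wall. Inflamed endothelium carries E-selectin, ICAM-1 and VCAM-1, while fibroblasts are also known to display ICAM-1 and VCAM-1 after inflammatory cytokines. PD-L1 and PD-L2 bind PD-1 on T cells and restrain their activation, and interferon gamma is the best known inducer of PD-L1.

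The study profiled fibroblasts along mammary tumourigenesis on Affymetrix Mouse Gene 1.0 ST arrays, with RNA of freshly sorted, uncultured cells and 1 cohort of pooled mice per array. Fibroblasts of female MMTV-PyMT mice, whose mammary epithelium expresses the polyoma middle T oncogene from the MMTV promoter, were taken at hyperplasia (4 weeks, 3 arrays, D6, D7 and D12), carcinoma (9 weeks, 3 arrays, D3, D4 and D10) and advanced carcinoma (12 weeks, 3 arrays, D8, D9 and D11). Normal fibroblasts came from mammary glands of FVB/n females without the transgene (8 weeks, 2 arrays, D2 and D5). Cells were sorted as positive for CD140a (PDGFRα) and negative for the macrophage antigen encoded by Adgre1, and the sample labels add negative for EpCAM. Each stage has its own age, so stage and age cannot be told apart. Carcinoma and advanced carcinoma fibroblasts (6 arrays) are called cancer-associated fibroblasts (CAFs) and were set against normal and hyperplasia fibroblasts together (5 arrays).

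All levels below are log2 expression values as the authors normalised them. A difference of 1 is therefore a doubling of the fluorescence signal. Because probe sets bind with different strength, a level of 1 gene is never set against a level of another.

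Features of the arrays bear on every comparison. Adding normal D2 to advanced carcinoma D11 gave, for each probe set, 2 times the average level of the remaining 9 arrays, with a largest gap of 0.000144. These arrays are thus not independent of the rest. Each comparison was also fitted with a shared term for them, and without both. The shared term cannot remove the dependence, because the mean of this pair already equals that of the other 9 arrays. With it, the difference between normal D2 and advanced carcinoma D11 still enters the comparisons, and only the fit without both leaves it out. The fibroblast markers were lowest in carcinoma D4, where the mean of 12 genes was 9.29, against 10.6 to 11.2 in the other 10 arrays. Pdgfra, which encodes the antigen of the sort, was at 9.21 in carcinoma D4 and at 10.5 or more in every other array. Adgre1 was at 5.18 to 7.66 in CAF arrays and 3.73 to 5.07 in normal and hyperplasia arrays, and Epcam was at 8.69 to 9.91 in CAF arrays and 6.02 to 8.01 in normal and hyperplasia arrays. Ptprc, which encodes the pan-leukocyte antigen CD45, was highest in hyperplasia D12 at 10.4 and normal D2 at 10.1, against 7.60 to 9.41 in the other arrays.

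**Figure D1:**
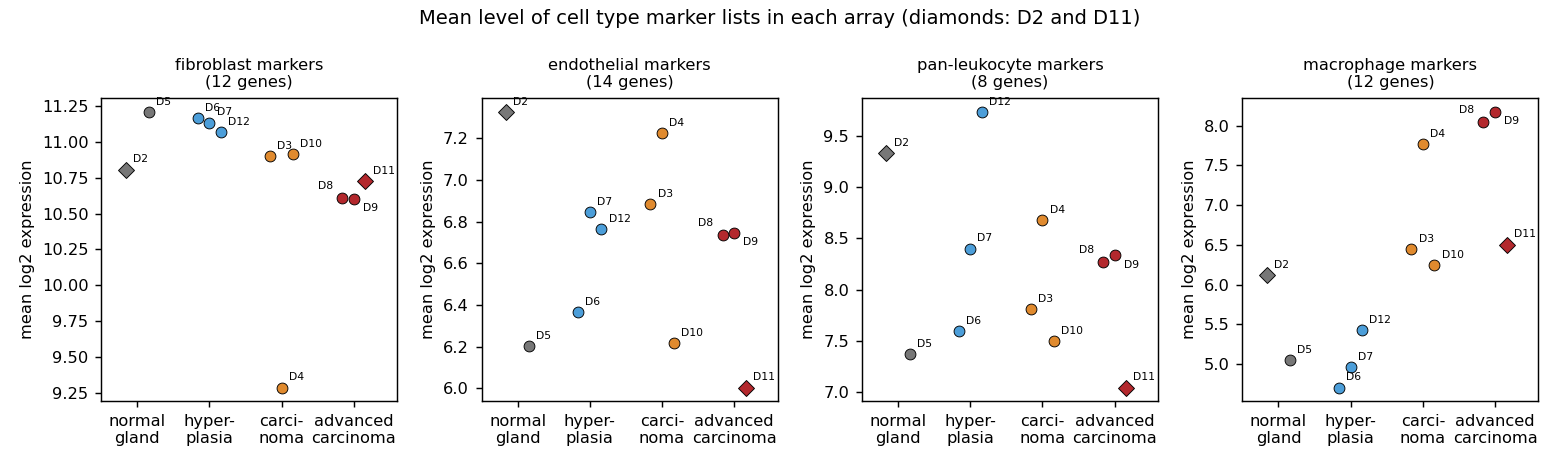
Mean log2 expression (y axis) of the markers of 4 cell types in each array, by stage (x axis); each point is 1 array and is named, and diamonds are normal D2 and advanced carcinoma D11. Carcinoma D4 has the lowest fibroblast mean (9.29), hyperplasia D12 the highest pan-leukocyte mean (9.73), normal D2 the highest endothelial mean (7.33), and advanced carcinoma D9 the highest macrophage mean (8.18).

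The promoters of 4 genes are shown first because inflammatory induction of these genes is known to act through their proximal promoters. Windows of 300 bases, from 250 before to 50 after the annotated start, were taken from RefSeq on GRCm38.p6 and matched 5 of the 7 measured genes, all on the + strand. Capitals mark matches on either strand to the kappa B motif (GGG, any pair of bases, then TTTCC), the STAT (GAS) motif TTCNNNGAA, the TATA motif TATAAA and the AP-1 motif TGANTCA. The GAS and AP-1 letters read the same on both strands, and no 2 matches overlapped in these windows. Positions count from the start, with the first base before it as -1. Icam1 lies at chr9:21015690-21015989, Sele at chr1:164047984-164048283, Madcam1 at chr10:79664309-79664608 and Cd274 at chr19:29367188-29367487.
Icam1: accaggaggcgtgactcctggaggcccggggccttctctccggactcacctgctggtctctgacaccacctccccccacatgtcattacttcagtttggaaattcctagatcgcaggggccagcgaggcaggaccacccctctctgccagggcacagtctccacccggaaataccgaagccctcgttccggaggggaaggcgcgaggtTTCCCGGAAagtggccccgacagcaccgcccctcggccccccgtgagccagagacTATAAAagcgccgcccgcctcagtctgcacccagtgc
Sele: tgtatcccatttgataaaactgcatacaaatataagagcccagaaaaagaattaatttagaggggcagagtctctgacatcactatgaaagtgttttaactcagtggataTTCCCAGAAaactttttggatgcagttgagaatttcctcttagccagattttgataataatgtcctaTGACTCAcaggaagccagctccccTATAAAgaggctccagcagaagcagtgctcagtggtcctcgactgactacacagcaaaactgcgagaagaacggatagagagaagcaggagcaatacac
Madcam1: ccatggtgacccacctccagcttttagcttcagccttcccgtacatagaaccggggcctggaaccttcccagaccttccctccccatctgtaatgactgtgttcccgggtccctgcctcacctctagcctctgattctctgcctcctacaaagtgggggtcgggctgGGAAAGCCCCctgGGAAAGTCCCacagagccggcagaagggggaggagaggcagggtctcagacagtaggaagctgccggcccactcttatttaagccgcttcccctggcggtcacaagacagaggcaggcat
Cd274: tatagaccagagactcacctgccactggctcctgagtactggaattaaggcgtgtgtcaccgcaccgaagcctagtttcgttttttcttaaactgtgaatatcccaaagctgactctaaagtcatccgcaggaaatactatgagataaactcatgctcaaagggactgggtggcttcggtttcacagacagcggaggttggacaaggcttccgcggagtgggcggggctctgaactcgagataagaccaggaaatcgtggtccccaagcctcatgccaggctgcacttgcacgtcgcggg

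The Icam1 window held a GAS match, TTCCCGGAA, at -42 to -34, and TATAAA at 14 to 19, after the annotated start. The Sele window held a GAS match (TTCCCAGAA, -140 to -132), an AP-1 match (TGACTCA, -73 to -67) and TATAAA (-49 to -44). The Madcam1 window held a pair of kappa B matches, both on the reverse strand, at -83 to -74 and -70 to -61. None of these letters occurred in the windows of Cd274 and of Pdcd1lg2 (chr19:29410669-29410968), which says nothing of bases outside them. Of 32851 windows of the same length, 1.63% held the kappa B letters, 8.30% the GAS letters, 13.6% TATAAA and 7.81% the AP-1 letters. These matches describe letters and were not tied to any value below. Sites that differ from the letters were not marked, so a window without a match may still hold such a site.

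Across the CAF comparison, Cd274 was lower in CAFs and the other 6 genes did not pass the test. The 7 log2 changes lay between -0.48 and 0.14, with a median of -0.13, beside -0.04 over all genes tested. In limma with Benjamini-Hochberg adjustment over all 19938 genes, 1 of the 7 passed an adjusted p of 0.05, and the same was true of 24.9% of all genes, so the share among these genes was not above that background. Of the genes passing, 48.4% were higher in CAFs, or 27.6% when each array was centred on its median.

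Cd274 encodes PD-L1, the main ligand of PD-1. Its level in normal D2 and D5 was 6.43 and 6.29. In hyperplasia D6, D7 and D12 it was 5.82, 6.01 and 6.40. In carcinoma D3, D4 and D10 it was 5.73, 5.57 and 6.15, and in advanced carcinoma D8, D9 and D11 it was 5.60, 5.80 and 5.43. Normal arrays were high and advanced carcinoma arrays low, while hyperplasia D12 sat with the normal arrays and carcinoma D10 stood above the rest of the CAFs. The highest arrays, normal D2 and hyperplasia D12, were those with the highest Ptprc. The stage means lay in the order of the model, at 6.36 ± 0.10 for normal glands, 6.08 ± 0.30 for hyperplasia, 5.82 ± 0.30 for carcinoma and 5.61 ± 0.18 for advanced carcinoma (SD, n = 2, 3, 3 and 3 arrays). No step between neighbouring stages passed the test, and limma's adjusted p was 0.999 for hyperplasia against normal, 0.388 for carcinoma against hyperplasia and 0.911 for advanced carcinoma against carcinoma.

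In CAFs Cd274 averaged 5.71 ± 0.25 (n = 6), against 6.19 ± 0.27 in normal and hyperplasia fibroblasts (n = 5). The log2 change was -0.48 (SE 0.14, 95% confidence interval -0.80 to -0.16), equal to 1.39-fold lower, with an adjusted p of 0.0330 in limma. The groups overlapped: 5 of 6 CAF arrays were below every normal and hyperplasia array, the exception being carcinoma D10. With the term for the tied arrays the adjusted p was 0.0492, and without both of them it was 0.126 with a change of -0.36. Leaving out any 1 of 7 arrays (normal D2 or D5, hyperplasia D12, carcinoma D4, or advanced carcinoma D8, D9 or D11) put the adjusted p between 0.0527 and 0.0748, while the change stayed between -0.42 and -0.57 over all 11 such fits.

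Advanced carcinoma against normal fibroblasts gave the widest gap for Cd274. It averaged 5.61 ± 0.18 in advanced carcinoma and 6.36 ± 0.10 in normal glands (SD, n = 3 and 2), a log2 change of -0.76 (SE 0.21, 95% confidence interval -1.22 to -0.29) or 1.69-fold lower, with an adjusted p of 0.0677 in limma. These arrays did not overlap, which groups of 3 and 2 can do by order alone. The share of all genes without overlap was not counted. The change was larger than 1.5-fold with an unadjusted p of 0.00522, the form of threshold used in the study, which 10.6% of all genes passed. The tied arrays lie one in each of these groups. With the term for them the adjusted p was 0.109, and without both the change was -0.60 with an adjusted p of 0.334. The adjusted p was 0.0288 without carcinoma D4 and 0.0420 without carcinoma D10, which enter this fit through the shared spread. For advanced carcinoma against hyperplasia the log2 change was -0.47 (adjusted p = 0.121). For carcinoma against normal glands it was -0.55 (adjusted p = 0.219). Both were without overlap, with the same limit.

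Markers of other cells moved in the same comparison. Over all 19938 genes, 2402 were higher and 2559 lower there in limma, and 4050 passed with the term for the tied arrays. Lymphocytes, dendritic cells and macrophages are also known to express PD-L1, and the sort for the arrays did not use CD45. The mean of 8 T and NK cell markers was 5.19 to 6.64 in CAF arrays and 5.96 to 8.30 in normal and hyperplasia arrays, with 4 of 8 lower by limma and none higher. The mean of 5 B cell markers was 5.66 to 6.93 in CAF arrays and 6.58 to 8.18 in normal and hyperplasia arrays, with 3 of 5 lower. Macrophage markers moved the other way, with 12 of 12 higher and a mean of 6.25 to 8.18 in CAF arrays and 4.71 to 6.12 in normal and hyperplasia arrays. Luminal epithelial markers were higher in 11 of 12, and their mean was 8.46 to 9.59 in CAF arrays and 6.27 to 7.78 in normal and hyperplasia arrays. Of 10 dendritic cell markers 1 was higher and 3 were lower. Of 8 pan-leukocyte markers none passed, and their mean was 7.04 to 8.68 in CAF arrays and 7.37 to 9.73 in normal and hyperplasia arrays. With the term for the tied arrays, 1 of 8 T and NK cell markers, 1 of 5 B cell markers and 3 of 10 dendritic cell markers were lower, no dendritic cell marker was higher, and 11 of 12 macrophage and 11 of 12 luminal markers were higher. The part of these cells in the Cd274 result was not tested, and in sorted populations fewer cells of a type and less RNA per cell cannot be told apart.

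Pdcd1lg2 encodes the other ligand of PD-1 and did not pass the adjusted threshold in any of these comparisons. It was at 4.31 and 4.24 in normal D2 and D5, 4.21, 4.53 and 4.46 in hyperplasia D6, D7 and D12, 4.25, 4.14 and 4.23 in carcinoma D3, D4 and D10, and 4.24, 4.23 and 4.25 in advanced carcinoma D8, D9 and D11. Hyperplasia D7 and D12 were the only arrays above normal D2. CAFs averaged 4.22 ± 0.04 and normal and hyperplasia fibroblasts 4.35 ± 0.14 (SD, n = 6 and 5), a log2 change of -0.13 (95% confidence interval -0.26 to 0.01, adjusted p = 0.159). By stage means the order was carcinoma 4.21, advanced carcinoma 4.24, normal 4.28 and hyperplasia 4.40, and no neighbours in it differed by the test. In carcinoma against hyperplasia the change was -0.19, with an unadjusted p of 0.0479 and an adjusted p of 0.174.

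**Figure D2:**
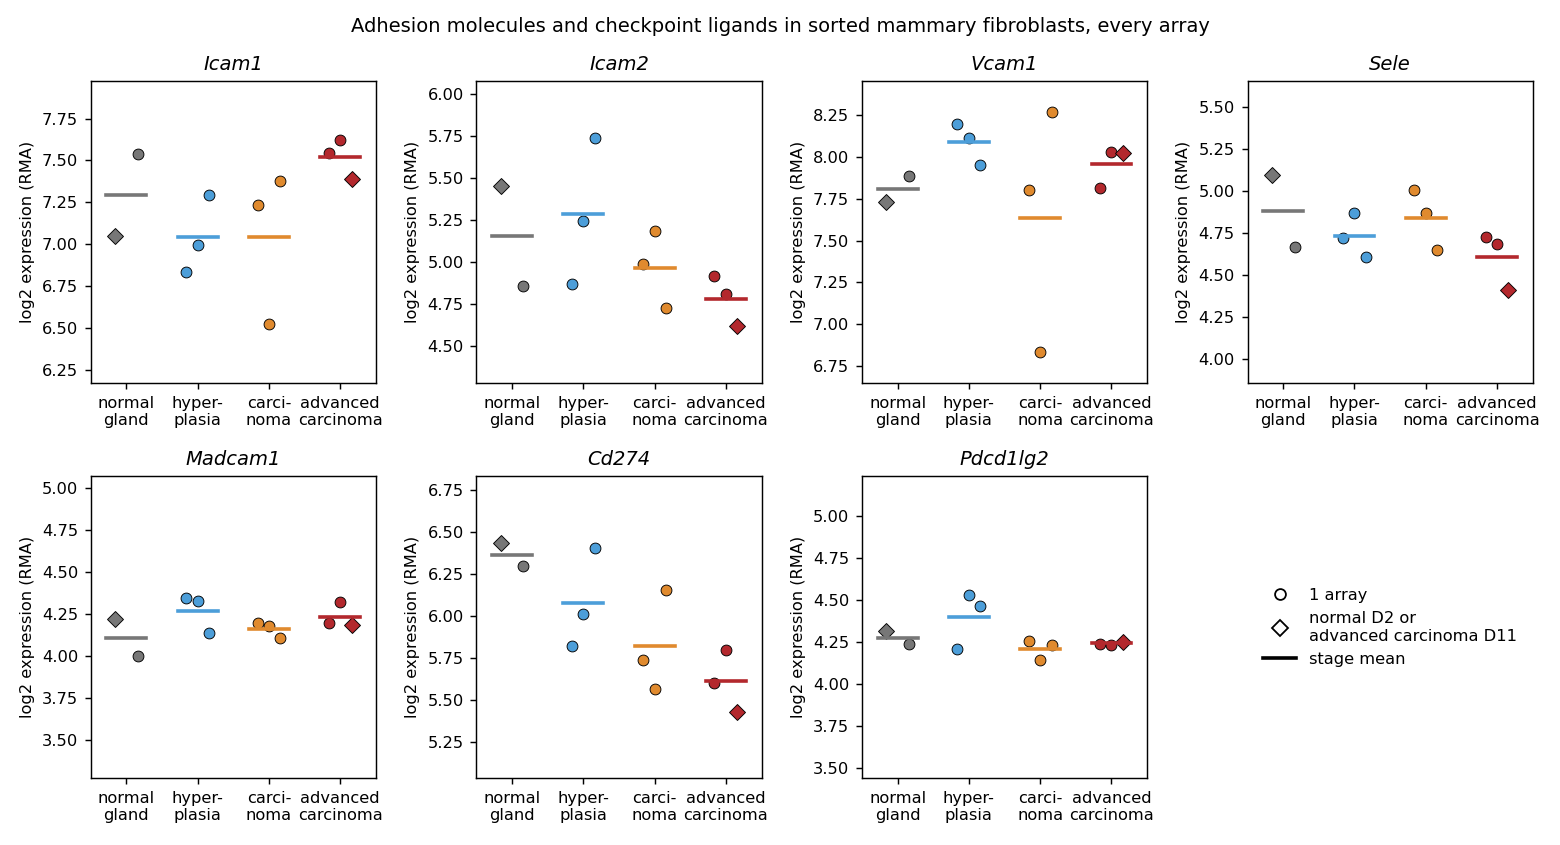
Log2 expression (y axis) of the 7 measured genes by stage (x axis); each circle is 1 array, bars are stage means, and diamonds are normal D2 and advanced carcinoma D11. The panels share the length of their y axis but not its position. Cd274 means are 6.36, 6.08, 5.82 and 5.61 from normal glands to advanced carcinoma, and carcinoma D4 is the lowest array for Icam1 (6.53) and Vcam1 (6.84).

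Among the adhesion molecules, Icam1 encodes the ligand of the leukocyte integrins LFA-1 and Mac-1. Its level was 7.05 and 7.54 in normal D2 and D5, and 6.84, 6.996 and 7.30 in hyperplasia D6, D7 and D12. It was 7.24, 6.53 and 7.38 in carcinoma D3, D4 and D10, and 7.55, 7.62 and 7.39 in advanced carcinoma D8, D9 and D11. The advanced carcinoma arrays were above every carcinoma and hyperplasia array, but normal D5 lay among them. How many of all genes show this order was not counted. Advanced carcinoma averaged 7.52 ± 0.12 and hyperplasia 7.04 ± 0.23 (SD, n = 3 each), a log2 change of 0.48 (95% confidence interval -0.04 to 0.99) with an adjusted p of 0.187 in limma. Without both tied arrays the change was 0.54 with an adjusted p of 0.216. Without carcinoma D4, which enters this fit only through the shared spread, the adjusted p was 0.0499. Carcinoma averaged 7.05 ± 0.46, and the change of advanced carcinoma against it was 0.47 with an adjusted p of 0.893. In the order of stage means, hyperplasia, carcinoma, normal (7.29 ± 0.35) and advanced carcinoma, neighbours did not differ beyond their spread. All CAFs together were at 7.28 ± 0.40, against 7.14 ± 0.28 in normal and hyperplasia fibroblasts, a change of 0.14 (95% confidence interval -0.28 to 0.56, adjusted p = 0.627).

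Vcam1 encodes the ligand of the integrin VLA-4. It was at 7.73 and 7.88 in normal D2 and D5, 8.20, 8.11 and 7.95 in hyperplasia D6, D7 and D12, 7.80, 6.84 and 8.26 in carcinoma D3, D4 and D10, and 7.82, 8.03 and 8.02 in advanced carcinoma D8, D9 and D11. Carcinoma held both the lowest array, D4, and the highest, D10, while the other 9 arrays lay between 7.73 and 8.20. Hyperplasia averaged 8.09 ± 0.12 and normal glands 7.81 ± 0.11 (SD, n = 3 and 2), a log2 change of 0.28 with an adjusted p of 0.999. CAFs averaged 7.79 ± 0.50 and normal and hyperplasia fibroblasts 7.97 ± 0.18, a change of -0.18 (95% confidence interval -0.65 to 0.29, adjusted p = 0.571). The order of stage means was carcinoma 7.63, normal 7.81, advanced carcinoma 7.95 and hyperplasia 8.09, and no neighbours differed by the test. Carcinoma D4 was also the lowest array for Icam1, and the fibroblast markers were lowest there. The part of cell composition in these low values was not tested.

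Icam2 encodes a ligand of LFA-1 found on resting endothelium and on leukocytes. It was at 5.45 and 4.86 in normal D2 and D5, 4.87, 5.24 and 5.74 in hyperplasia D6, D7 and D12, 4.98, 5.18 and 4.73 in carcinoma D3, D4 and D10, and 4.91, 4.81 and 4.62 in advanced carcinoma D8, D9 and D11. The highest arrays, hyperplasia D12 and normal D2, were those with the highest Ptprc. CAFs averaged 4.87 ± 0.20 and normal and hyperplasia fibroblasts 5.23 ± 0.38 (SD, n = 6 and 5), a log2 change of -0.36 (95% confidence interval -0.72 to -0.00071, unadjusted p = 0.0496, adjusted p = 0.130). When each array was centred on its median the change was -0.45 with an adjusted p of 0.0372 in limma. Without both tied arrays it was -0.25 (adjusted p = 0.352), and with the term for them -0.36 (adjusted p = 0.163). The stage means ran from 4.78 in advanced carcinoma through 4.97 in carcinoma and 5.16 in normal glands to 5.28 in hyperplasia, with no neighbours different by the test. The mean of 8 pan-leukocyte markers was 7.04 to 8.68 in CAF arrays and 7.37 to 9.73 in normal and hyperplasia arrays. The part of leukocytes in the Icam2 values was not tested.

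Sele encodes E-selectin, which inflamed endothelial cells make. Its level was 5.10 and 4.66 in normal D2 and D5, 4.72, 4.87 and 4.61 in hyperplasia D6, D7 and D12, 5.004, 4.87 and 4.65 in carcinoma D3, D4 and D10, and 4.72, 4.68 and 4.41 in advanced carcinoma D8, D9 and D11. The stages overlapped throughout, with normal D2 highest and advanced carcinoma D11 lowest, the tied arrays. CAFs were at 4.72 ± 0.20 and normal and hyperplasia fibroblasts at 4.79 ± 0.20, a log2 change of -0.07 (95% confidence interval -0.32 to 0.18, adjusted p = 0.691). The order of stage means was advanced carcinoma 4.61, hyperplasia 4.73, carcinoma 4.84 and normal 4.88, and no neighbours differed by the test. Between its ends the log2 change was -0.27, with an adjusted p of 0.351. Without both tied arrays these values turned in sign, to 0.04 for advanced carcinoma against normal and to 0.07 for CAFs (adjusted p = 0.924 and 0.602). Endothelial markers, 14 in all, had their lowest mean in advanced carcinoma D11, 6.004, and their highest in normal D2, 7.33. By the tie, a level in normal D2 above the mean of the other 9 arrays puts advanced carcinoma D11 below it by the same amount. For Sele and for the endothelial markers, the high and the low end are thus not separate observations. The endothelial mean was 6.004 to 7.23 in CAF arrays and 6.20 to 7.33 in normal and hyperplasia arrays. Of these markers only Tek passed the test, lower in CAFs by a log2 change of -1.72. Pecam1 was at 7.32 ± 0.64 in CAFs and 7.48 ± 0.78 in normal and hyperplasia fibroblasts, while Cdh5 was at 8.26 ± 0.67 in CAFs and 7.75 ± 0.66 in those fibroblasts, neither past the test.

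Madcam1, the ligand of the gut-homing integrin of lymphocytes, had an SD of 0.103 over the 11 arrays, the smallest of the 7 genes. Its level in any array was between 3.996 in normal D5 and 4.34 in hyperplasia D6, and all stages overlapped. CAFs averaged 4.20 ± 0.07 and normal and hyperplasia fibroblasts 4.20 ± 0.14, a log2 change of -0.01 (95% confidence interval -0.15 to 0.14, adjusted p = 0.940). By stage, normal glands averaged 4.11, carcinoma 4.16, advanced carcinoma 4.23 and hyperplasia 4.27, and no neighbours in this order differed by the test. Madcam1, Pdcd1lg2, Sele and Icam2 averaged below the median gene level of 5.64. Whether their signal stood above background was not tested, so flat values need not mean unchanged RNA.

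**Figure D3:**
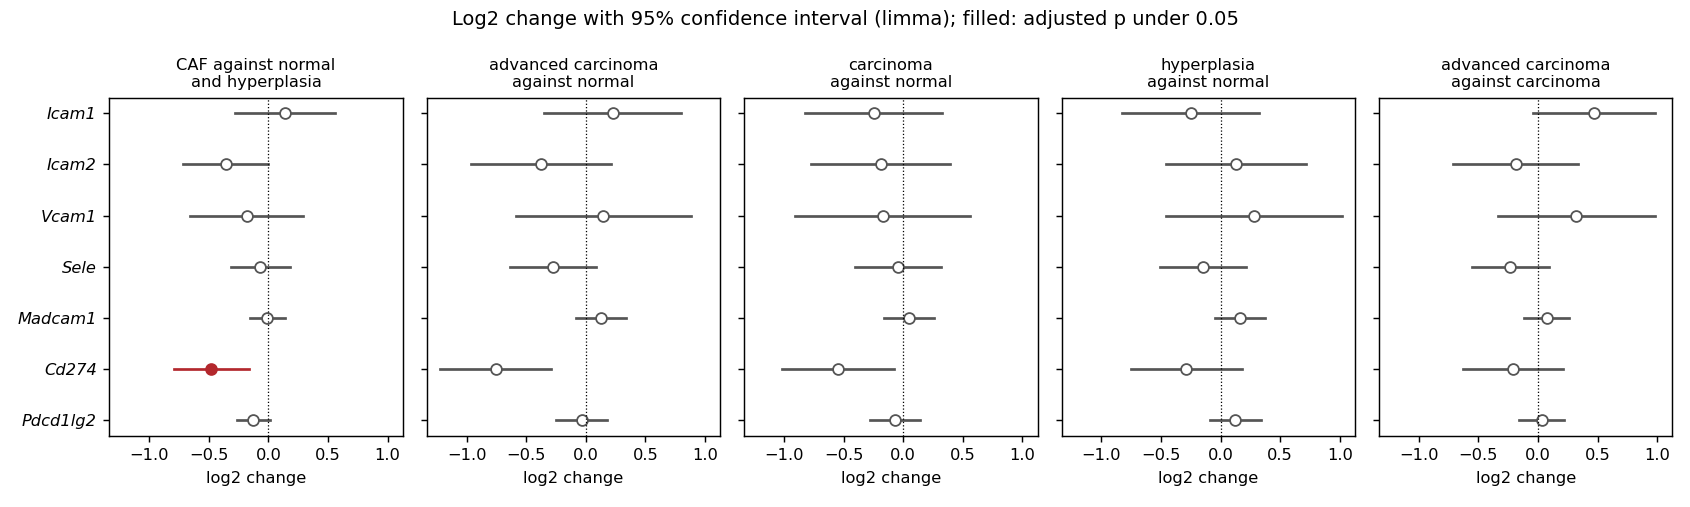
Log2 change (x axis) of the 7 genes (y axis) in 5 comparisons, with the 95% confidence interval from limma; filled red points have an adjusted p under 0.05. Cd274 in CAFs is the 1 filled point (-0.48), and its interval also lies below 0 in advanced carcinoma and in carcinoma against normal.

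Stage by stage, none of the 7 genes passed the adjusted threshold in limma or in contrasts of the unmoderated linear model, the form of test that the methods name. The share of all genes that passed it in limma was 5.61% in advanced carcinoma against normal, 0.938% in carcinoma against normal, 9.25% in carcinoma against hyperplasia, 14.5% in advanced carcinoma against hyperplasia and 9.04% in the F test across the 4 stages. At an unadjusted p under 0.05, 1 of the 7 genes passed in each of these 5 tests. The share of all genes at that unadjusted threshold was 22.6% in advanced carcinoma against normal, 18% in carcinoma against normal, 28% in carcinoma against hyperplasia, 31.4% in advanced carcinoma against hyperplasia and 26.3% across the 4 stages, so 1 of 7 was above none of these backgrounds. Across the 4 stages the gene was Cd274, with an unadjusted p of 0.0241 and an adjusted p of 0.128. Neither hyperplasia against normal nor advanced carcinoma against carcinoma had a gene past the adjusted threshold by either test, a background of 0%, and none of the 7 had an unadjusted p under 0.05, while 841 and 1124 of all genes did in limma.

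The 7 genes did not vary as a unit. Over the 11 arrays the pair most alike was Icam2 and Pdcd1lg2 (Pearson r = 0.63), followed by Icam2 with Cd274 (0.58) and Icam1 with Vcam1 (0.55). The pair most opposed was Icam1 and Sele (-0.46). These correlations share arrays, stages and the tied pair, and are a description.

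Over all genes, the 3 most alike in pattern to Icam1 across the 11 arrays were Gas6 (r = 0.96), Cxcl14 (0.95) and Socs3 (0.95). For Vcam1 they were Srpx2 (0.97), Igf1 (0.97) and Ckap4 (0.96). For Icam2 they were Ets1 (0.99), Ly9 (0.99) and Grap (0.99), and Ly9 encodes a receptor of the SLAM family on lymphocytes. Kdr, the endothelial receptor of VEGF, was among those of Sele (0.92), with Rpl22 (0.94) and Frem2 (0.94). Adcy4 (0.95), Dennd4b (0.93) and Zfp689 (0.92) were nearest to Cd274, and Tdgf1 (0.96), Lect2 (0.94) and Sox3 (0.93) to Pdcd1lg2. The nearest to Madcam1 were Stfa2 (0.89), Zfp322a (0.88) and Nccrp1 (0.87).

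The counter-receptors, modifying enzymes, relatives and inducers of these molecules were examined in the same CAF comparison, as lists chosen with earlier results of these data known. Counts here are of genes past an adjusted p of 0.05 in limma. Of all 19938 genes, 24.9% passed in both directions together, 2402 higher and 2559 lower in CAFs. With the term for the tied arrays 4050 passed, and the count of all genes without both arrays is not given here. Where all CAF arrays lay above or below the others, the share of all genes doing so was not counted.

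Of 10 integrin genes, not all of them counter-receptors of these molecules, 3 were higher and 2 lower in CAFs, and the median change was -0.02. Itgb7, a chain of the receptor of MAdCAM-1 on lymphocytes, was at 5.58 ± 0.41 (SD) in 6 CAF arrays and 6.92 ± 0.46 in 5 normal and hyperplasia arrays, a log2 change of -1.34 (adjusted p = 0.00278). It was highest in hyperplasia D12 (7.43) and normal D2 (7.24), and the part of lymphocytes in its change was not tested. Itgam, a chain of Mac-1 on myeloid cells, was higher by 1.46 (adjusted p = 0.0238), although its groups overlapped and the adjusted p was 0.0572, 0.0584 or 0.0517 without hyperplasia D6, hyperplasia D7 or advanced carcinoma D8. The collagen receptor chains Itga2 and Itga1, counted in this list though not counter-receptors of the adhesion molecules, changed by -0.81 and 0.53. The chains of LFA-1 did not pass, with log2 changes of -0.95 for Itgal (adjusted p = 0.106) and -0.01 for Itgb2 (adjusted p = 0.993). The value for Itga4, the alpha chain of VLA-4, was -0.52 (adjusted p = 0.340). Without both tied arrays 1 gene was higher and 2 were lower.

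Of 14 selectin ligands and glycosylation enzymes, 4 were higher and 2 lower in CAFs, with a median change of -0.04. Cd44, a hyaluronan receptor that can carry selectin-binding glycans, averaged 8.60 ± 0.20 in CAFs and 7.53 ± 0.44 in normal and hyperplasia fibroblasts, a log2 change of 1.06 (adjusted p = 0.00231), with all 6 CAF arrays above the others. Glycam1, which is also secreted by mammary epithelium, was higher by 2.30 (adjusted p = 0.0220), an effect that lost the threshold without normal D5 or without hyperplasia D6 (adjusted p = 0.0509 and 0.0565). Golph3, a Golgi protein that retains glycosyltransferases, was higher by 0.31, and Cd34, a sialomucin of endothelial and stromal progenitors, changed by -0.82. Selplg, which encodes the main P-selectin ligand of leukocytes, was at 7.55 ± 0.60 in CAFs and 8.17 ± 1.06 in normal and hyperplasia fibroblasts (adjusted p = 0.346).

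Of 13 other ICAMs and junctional adhesion molecules, 4 were higher and 1 lower, with a median change of 0.10. Mcam, an adhesion molecule of pericytes, endothelium and some epithelia, was at 7.58 ± 0.48 in CAFs and 5.94 ± 0.39 in normal and hyperplasia fibroblasts, a log2 change of 1.64 (adjusted p = 0.00109). F11r (JAM-A of epithelial and endothelial junctions) was higher by 1.62, Ninj1, which mediates adhesion between nerve and other cells, by 1.32, and Cd99l2 by 0.26. In each of these 4 genes every CAF array was above every normal and hyperplasia array. The luminal epithelial markers given above rose in the same arrays, and their part in these changes was not tested. The ICAM genes of this list, Icam4 and Icam5, did not pass, with changes of 0.10 and -0.05.

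Of 22 checkpoint receptors and other checkpoint ligands, 4 were higher and 8 lower in CAFs, with a median change of -0.13. Vtcn1 (B7-H4), an inhibitory ligand also made by mammary epithelium, averaged 8.21 ± 0.58 in CAFs and 5.98 ± 0.75 in normal and hyperplasia fibroblasts, a log2 change of 2.23 (adjusted p = 0.00167). Nectin2, a ligand of TIGIT, was higher by 0.91. Vtcn1 and Nectin2 were highest in carcinoma D4 (9.03 and 6.07), the array with the highest luminal epithelial mean (9.59) and the lowest fibroblast mean. The part of epithelial cells in these changes was not tested. Tnfrsf14 (HVEM), the ligand of BTLA, and Icosl, the ligand of ICOS, had changes of -0.80 and -0.59, with all 6 CAF arrays below the others. Pdcd1, which encodes PD-1 itself, was at 4.61 ± 0.06 in CAFs and 4.85 ± 0.21 in normal and hyperplasia fibroblasts, a change of -0.24 that missed the threshold (adjusted p = 0.0557). Among the listed receptors known on T cells, Cd28, Icos, Ctla4, Btla, Tigit and Pdcd1 were highest in normal D2 and hyperplasia D12. Lag3 was highest in advanced carcinoma D8 and Havcr2 in advanced carcinoma D9. Normal D2 and hyperplasia D12 also had the highest T and NK cell marker means (7.61 and 8.30). The part of lymphocytes in the lower counts was not tested. Without both tied arrays 3 of the 22 were higher and 4 were lower, and with the term for them 4 and 6.

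Of 25 cytokines, receptors and transducers known to induce these molecules, 3 were higher and 8 lower, with a median change of -0.14. Stat3, a transducer of interleukin-6 type cytokines, was at 9.90 ± 0.14 in CAFs and 9.23 ± 0.22 in normal and hyperplasia fibroblasts, a log2 change of 0.67 (adjusted p = 0.00140). The interleukin-4 receptor chain Il4ra, the transducer Stat6 downstream of it and the TNF receptor Tnfrsf1b had changes of -1.06, -0.25 and -0.51, all past the test. Ifng, which encodes interferon gamma, was at 4.62 ± 0.10 in CAFs and 4.91 ± 0.17 in normal and hyperplasia fibroblasts, a change of -0.29 (adjusted p = 0.0215). It was highest in hyperplasia D12 (5.19) and normal D2 (4.93), and the part of lymphocytes in its change was not tested. Its receptor chain Ifngr1 changed by -0.38 and the kinases Jak1 and Jak2 by -0.32 and -0.27 (adjusted p = 0.0320, 0.0315 and 0.0374). For Irf1, the interferon-induced factor known to drive Cd274, the change was -0.12 (adjusted p = 0.442). Il1b, an inducer of endothelial adhesion molecules, was higher by 1.74 (adjusted p = 0.0278), while the value for Tnf was 0.63 (adjusted p = 0.0872). The Il1b groups overlapped, with carcinoma D10 (5.19) below normal D2 (5.57). Its highest arrays, advanced carcinoma D9 and D8 and carcinoma D4, also had the highest macrophage marker means. The part of macrophages in the Il1b change was not tested. Genes outside the 4 of each list with the smallest p were named after their values were seen. Without both tied arrays 2 of the 25 were higher and 3 lower. The 3 lower were Il4ra, Stat6 and Tnfrsf1b, so Ifng, Ifngr1, Jak1 and Jak2 lost the threshold there.

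**Figure D4:**
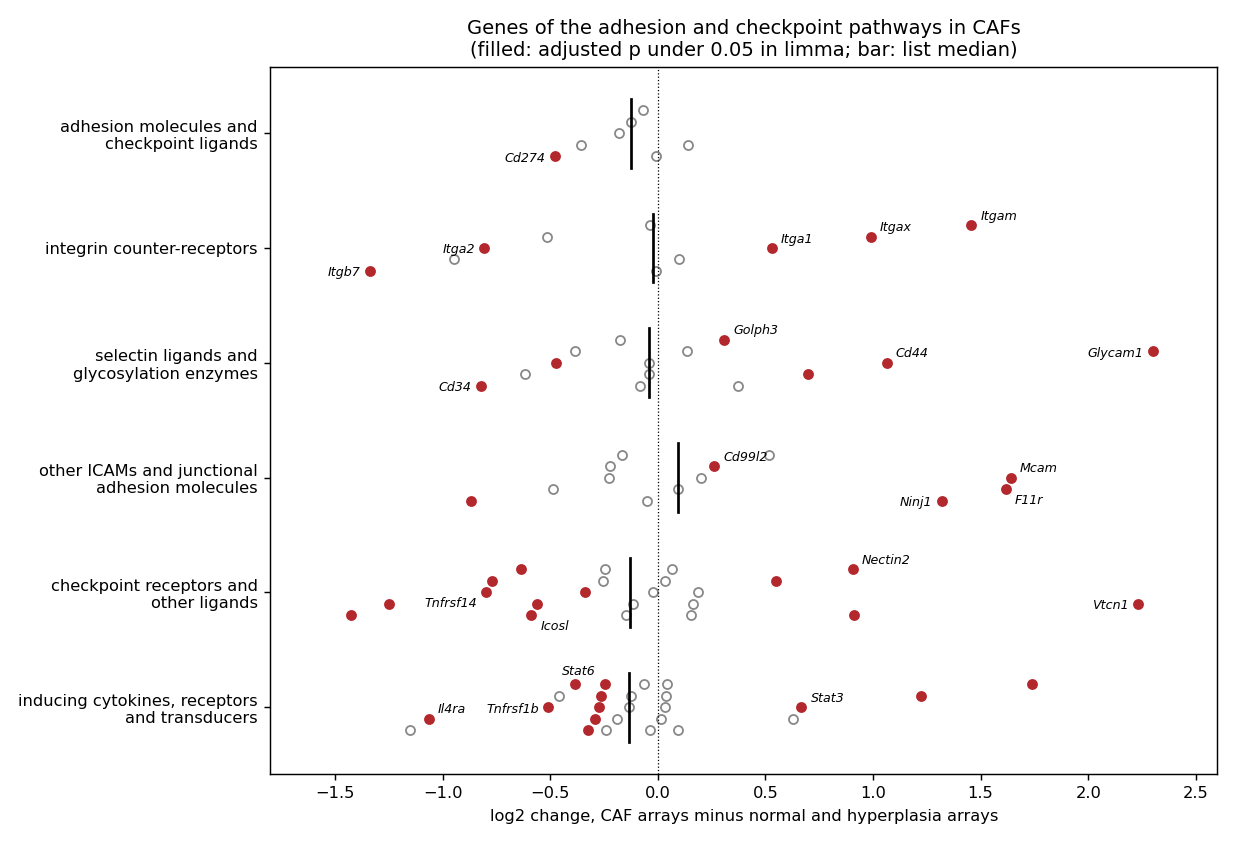
Log2 change in CAFs minus normal and hyperplasia fibroblasts (x axis) of single genes in 6 lists (y axis, spread within a list for legibility); filled red points have an adjusted p under 0.05, vertical bars are list medians, and up to 5 genes a list are named. The first row holds the 7 measured genes, between -0.48 and 0.14, and the others reach from -1.43 to 2.30.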

How the data were processed

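The deposited values are log2 expression of 35399 probe sets that the authors summarised with the robust multi-array method in Partek Genomics Suite 6.5. Of these, 21789 had 1 gene symbol, 1621 several and 11989 none here, and a gene with more than 1 probe set (999 of 19938) was represented by the brightest. Array medians were 5.28 to 5.39. Comparisons used limma 3.58.1 (R 4.3.3) on all 11 arrays, in a fit with 4 stages and, for CAFs, a fit with 2 groups, with Benjamini-Hochberg adjustment over all genes within each comparison. By rule, named genes were the members, the 4 genes of each list with the smallest p, markers of cell identity and the 3 genes most alike in pattern. Other genes of the lists were named after their values were seen. Genes and lists were chosen with earlier results of these data known. Alternatives were median centring, quantile normalisation, a filter on dim genes, every probe set, the mean of probe sets, one-way ANOVA contrasts, array weights, fits on the compared arrays, a trended and robust prior, the study's threshold, the tied arrays as a term or left out, and each array left out in turn. Scripts were tested on simulated data. P-values measure the spread between cohorts, and the number of arrays limits the precision. Promoter windows were read from RefSeq.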

Additional observations from a re-analysis of the deposited data

Results flagged for a closer look

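Of 14 groups of values tested for an array far from the others (7 genes, each in CAFs and in normal and hyperplasia fibroblasts), 3 held one, and chance alone marks about 1 in 20. All 3 were carcinoma D4 among the CAFs. Its Icam1 level was 6.53, against 7.24 in the nearest CAF array. Its Vcam1 level was 6.84, against 7.80 in the nearest, and its Pdcd1lg2 level was 4.14, against 4.23. The fibroblast markers had their lowest mean in the same array, 9.29, and the array weight estimated by limma was lowest there, at 0.203.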

How the results depend on the processing

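Over 23 alternative settings, 1092 single changes of the 7 genes were recomputed. Of these, 1068 stayed on their side of the threshold, 10 lost it and 14 gained it. No called change turned its sign, and 36 changes that passed in neither setting did. In CAFs the count of genes passing, 1, was 0 without both tied arrays, 0 by one-way ANOVA contrasts (Cd274, adjusted p = 0.0579), 0 at an unadjusted p under 0.05 with a fold over 1.5, and 3 with median-centred arrays, where Icam2 (-0.45) and Pdcd1lg2 (-0.22, adjusted p = 0.0367) joined Cd274. Leaving out 1 array gave 0 to 1. Advanced carcinoma against normal, 0, became 1 (Cd274) with median centring, quantile normalisation, array weights, only the compared arrays (adjusted p = 0.0318, 0.0445, 0.0191 and 0.0195) and the study's threshold, and 0 to 1 with an array left out (1 without carcinoma D4, adjusted p = 0.0288, or D10, 0.0420). Advanced carcinoma against hyperplasia, 0, became 1 with median centring (Cd274, 0.0381), array weights and only the compared arrays (Icam1, 0.0210 and 0.0401), and 0 to 1 with an array left out (Pdcd1lg2 without hyperplasia D6, 0.0498; Icam1 without carcinoma D4, 0.0499). Across the 4 stages the count, 0, became 1 with median centring, array weights and an unadjusted p. The cause of these changes was not tested. The other counts were 0 throughout. Median centring moved the median change of all genes in advanced carcinoma against hyperplasia by -0.13 and lowered the share higher among genes passing to 34.2% (58.6% as deposited), to 56.3% (69.5%) in advanced carcinoma against normal and to 42.2% (52.8%) in carcinoma against hyperplasia. The 20 genes named by smallest p in the 5 lists kept their direction in 438 refits, and 13 of the 20 passed in all of those, the list alternatives being chosen after seeing the data. Counts lower in CAFs ranged from 4 to 10 of 22 checkpoint genes and from 2 to 11 of 25 inducers. With an array left out, 5 to 9 and 4 to 8 of these were lower, 3 to 4 and 1 to 4 higher, and higher counts were 1 to 3 for integrins and 2 to 4 for selectin ligands. No paired analysis was possible because the stages share no replicate numbers. The filter on dim genes kept 3 of the 7 genes, Icam1, Vcam1 and Cd274.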
